A study of Arabidopsis thaliana with 6 samples.

Results

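In leaves of the Arabidopsis thaliana mutant des1-1, 99 nuclear genes had moderately lower array signals than in wild-type leaves, by 0.50 to 0.90 on the log2 scale. They were selected on the measured values themselves. A probe set belonged to the group when a platform annotation gave it 1 gene, all 3 des1-1 values lay below all 3 wild-type values, the mean difference (des1-1 minus wild type) ran from -0.5 down to above -0.9, and the mean over the 6 arrays was at least 5. Of 22746 probe sets without controls, 13513 carried 1 gene and 8169 of those had a mean of at least 5. The value criteria were met by 112, from which 8 chloroplast genes, COR15A, BGLU40, BGLU47, AT1G67870 and AT1G31690 were left out, with 99 genes remaining. Because the genotype difference chose them, it is given below as a description, with no test, and none of it is evidence for a difference. The number selected rested on single arrays: it was 305 without des1-1 1, 55 without des1-1 3 and 186 without wild type 3.

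The plants were the T-DNA insertion mutant des1-1 and, as wild type, the accession Col-0, each with 3 biological replicates hybridised to Affymetrix ATH1 arrays. Both genotypes were raised in soil with Hoagland medium under 16 h of light at 20 °C and 8 h of dark at 18 °C, and leaves were taken at an age of 3 weeks. The mutant is a single insertion line, and its own gene, DES1 (AT5G28030), had no probe set with 1 named gene, so its signal could not serve as a check of the genotypes. Leaf RNA is a mixture of cell types, in which fewer cells of a type and less RNA per cell cannot be told apart.

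DES1 belongs to the family of O-acetylserine(thiol)lyases but breaks cysteine down, releasing sulfide, and so takes part in the balance of cysteine in the cytosol. Its loss is therefore studied for effects on sulfur signalling, defence and autophagy. The reference table gives names to 17 of the moderately lower genes, and these 17 belong to no single pathway. They include genes for proteins of membrane traffic, the cytoskeleton, chromatin, RNA processing, protein folding and starch breakdown. The other 82 have only locus numbers there, and no function is stated for them here.

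Within the selected genes the des1-1 arrays were graded. Relative to each gene's wild-type mean, the median over the 99 genes was -0.28 on des1-1 1, -0.64 on des1-1 2 and -0.85 on des1-1 3, which are ratios of 0.824, 0.642 and 0.554. On the wild-type arrays the medians were 0.08, 0.04 and -0.14. Array des1-1 1 was thus closest to the wild type, and wild type 3 lay lowest among the wild-type arrays. Des1-1 1 was the highest des1-1 array in 96 of the 99 genes, against 30.5% of all 8169 probe sets with 1 gene and a mean of at least 5. Des1-1 3 was the lowest in 82 genes, against 30.2% of the 8169. The full order 1, 2, 3 from high to low was found in 81 genes, or 81.8%, against 16.7% of the 8169. Wild type 3 was the lowest wild-type array in 74 genes, against 27.4% of the 8169. Among the 87 genes that met the rule with the sign turned, des1-1 3 was also the most extreme array, as the highest des1-1 array in 79.3%. The order of des1-1 1 and 2 was not mirrored, since the medians of these 87 were 0.52, 0.49 and 0.76 on des1-1 1, 2 and 3. Des1-1 2 was their lowest des1-1 array in 51.7% and des1-1 1 in 37.9%. The wild-type order was mirrored, with medians of these 87 of -0.07, -0.02 and 0.07 on wild type 1, 2 and 3. Wild type 3 was their highest wild-type array in 52.9%, against 31.7% of the 8169. Of the 99 genes, those in which des1-1 1 was not the highest were ATATH8, AT5G61140 and AT2G39850, of which ATATH8 had its lowest value there.

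**Figure D1:**
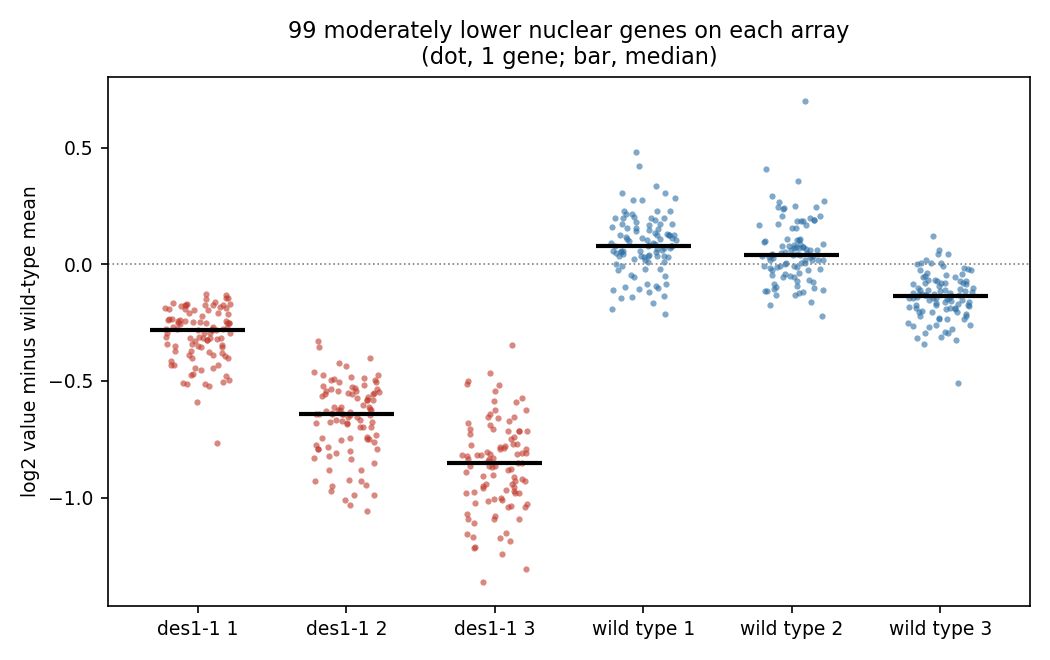
Log2 value minus the wild-type mean of the same gene (vertical axis) on each des1-1 and wild-type array (horizontal axis). Each dot is 1 of the 99 genes and each bar the median, which steps through -0.28, -0.64 and -0.85 on des1-1 1, 2 and 3 and lies at 0.08, 0.04 and -0.14 on wild type 1, 2 and 3.

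The spread followed the same gradation. The median SD over 3 arrays was 0.32 in des1-1 and 0.16 in the wild type, and the des1-1 SD was the larger in 80 of 99 genes (80.8%). Over all 8169 probe sets the medians were 0.13 in des1-1 and 0.11 in the wild type, and the des1-1 SD was the larger in 60.8%. The gap between the highest des1-1 and the lowest wild-type value was small, with a median of 0.13, and at most 0.1 in 42 genes. It was narrowest for AT5G03420 and AT4G01570 (0.01 each) and widest for AT5G44400 (0.41) and ATATH8 (0.40). Median levels were 6.69 in des1-1 and 7.34 in the wild type, and means over 6 arrays ran from 5.38 (AT2G21560) to 10.77 (PWD). The median difference was -0.60, a ratio of 0.661, and the SE of a single difference from limma was 0.09 to 0.26.

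None of the 99 genes passed limma's test over all 22746 probe sets (adjusted p 0.05002 to 0.291, Benjamini-Hochberg), and all 99 had an unadjusted p under 0.05. In this comparison 0.0572% of all probe sets were called lower at an adjusted p under 0.05, 7.66% were lower at an unadjusted p under 0.05, and in 8.66% all des1-1 values lay below all wild-type values (9.43% of the 8169 with 1 gene and a mean of at least 5). The rule used the same contrast, so these shares are background only. The lowest adjusted p, that of AT1G45160, lay just above the threshold. Leaving out des1-1 1 turned the outcome round: 81 of the 99 then passed, with 2.4% of all probe sets called lower. With any 1 of the other 5 arrays left out, 0 of the 99 passed, and 0 to 5 of all probe sets were called lower. With the replicate number as a block 27 passed, where 0.391% of all probe sets were called lower.

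At the edges of the rule values were continuous. Just inside the limit of -0.5 stood AT5G35910, AT5G13560 and AT1G15940, at -0.50 each, and just outside it AT5G51560 and AT3G05670 (-0.50 each, above the limit before rounding) and AT1G72700 (-0.49). At the far limit AT5G55100 (-0.90), AT5G55660 (-0.84) and AT4G32330 (-0.83) lay inside, and ATSPS4F (-0.91), AT1G48090 (-0.92) and IQD31 (-0.97) outside. The minimum mean of 5 removed 0 genes. Another 54 probe sets met every other criterion but overlapped between genotypes.

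**Figure D2:**
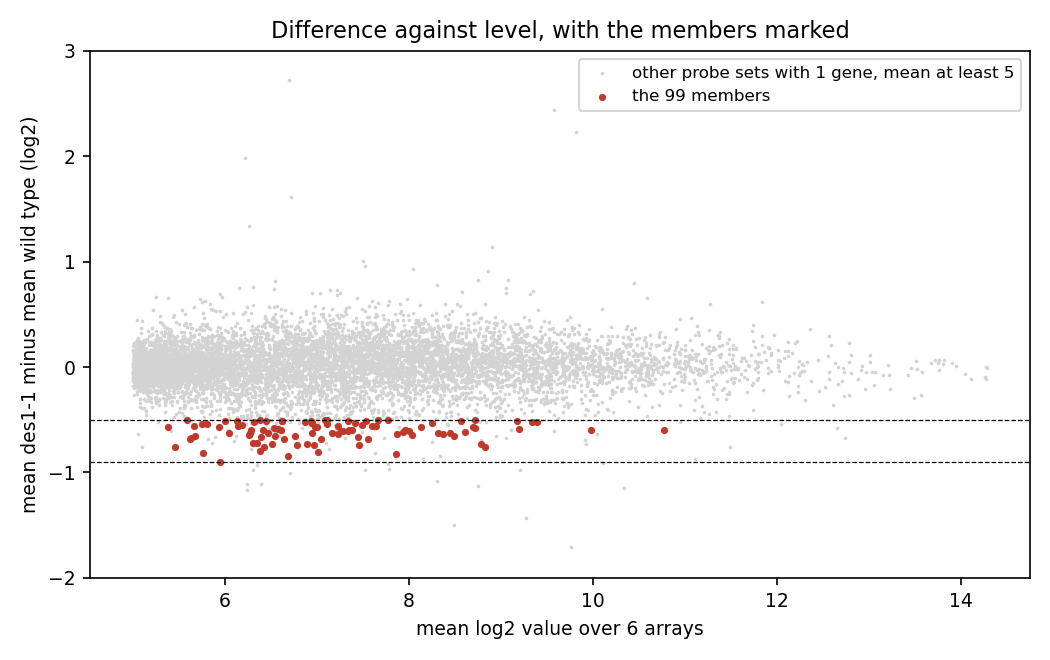
Mean des1-1 minus mean wild type (log2, vertical axis) against the mean log2 value over 6 arrays (horizontal axis) for the 8169 probe sets with 1 gene and a mean of at least 5. The 99 selected genes, in red, fill the band between the dashed lines at -0.5 and -0.9 and have means of 5.38 to 10.77.

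Of the 17 named genes, 6 encode proteins of the cytoskeleton or of membrane traffic. Their differences ran from -0.69 to -0.56. KICP-02, which encodes a kinesin-type motor protein, had 5.62, 5.17 and 5.04 on the des1-1 arrays 1 to 3, against 6.06, 6.02 and 5.80 on the wild-type arrays 1 to 3. ATMAP65-6, of the MAP65 family of microtubule-bundling proteins, had 8.16, 7.79 and 7.19 in des1-1 and 8.53, 8.35 and 8.19 in the wild type. The 2 genotypes came within 0.03 of each other in ATMAP65-6, between des1-1 1 and wild type 3, while des1-1 3 lay far below both. TRM15, of the TON1 recruiting motif family, whose proteins are linked to cortical microtubules, had 6.52, 6.23 and 6.10 in des1-1 and 6.75, 7.06 and 6.80 in the wild type.

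SPI (SPIRRIG) encodes a large BEACH-domain protein known from the shape of trichomes. It had 6.53, 6.22 and 6.14 in des1-1 and 7.15, 6.97 and 6.83 in the wild type, with a log2 difference of -0.69 ± 0.12 (limma SE, n = 3 each). Its wild-type values were well apart from the des1-1 values on every array. SEC6, a subunit of the exocyst, the complex that tethers secretory vesicles to the plasma membrane, had 7.50, 7.01 and 6.64 in des1-1, against 7.85, 7.53 and 7.57 in the wild type. KEU (KEULE), a Sec1 family protein needed for vesicle fusion at the cell plate, had 7.64, 7.35 and 6.97 in des1-1 and 8.03, 7.90 and 7.72 in the wild type. In both genes des1-1 1 stood next to the lowest wild-type array and des1-1 3 far below it.

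Genes of chromatin, transcription and RNA numbered 4. CHR17, an ISWI-type ATPase that moves nucleosomes, had 6.40, 5.93 and 5.86 in des1-1 and 6.76, 6.80 and 6.61 in the wild type (log2 difference -0.66 ± 0.14 SE). MYR2, a transcription factor gene with a MYB-related domain, had 5.83, 5.18 and 5.02 in des1-1, against 6.05, 6.03 and 5.92 in the wild type. Its wild-type arrays were close together (SD 0.07) and its des1-1 arrays were not (SD 0.43). AT1G03910, which the reference table also names CACTIN, had 7.83, 7.68 and 7.48 in des1-1 and 8.34, 8.33 and 8.11 in the wild type. RH39, a DEAD-box RNA helicase that acts on chloroplast ribosomal RNA, had 6.30, 6.07 and 6.20 in des1-1, against 6.65, 6.94 and 6.51 in the wild type, and in it des1-1 2 was the lowest array.

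Protein folding and breakdown had 3 named genes. Hop2, a cochaperone that joins HSP70 and HSP90, had 8.12, 7.67 and 7.29 in des1-1 and 8.36, 8.25 and 8.28 in the wild type. Phox3, of a small family with tetratricopeptide repeats, had 6.43, 6.01 and 5.52 in des1-1, against 6.88, 6.77 and 6.47 in the wild type. Both show an even step from des1-1 1 to des1-1 3 that is larger than the range of the wild-type arrays. SBT1.3, which encodes a subtilisin-like serine protease, had 7.35, 7.15 and 6.76 in des1-1 and 7.81, 8.10 and 7.58 in the wild type, with a log2 difference of -0.74 ± 0.17 (limma SE), the largest among the 17 named genes.

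Metabolic enzymes were 3 of the named genes. PWD, the phosphoglucan water dikinase that phosphorylates starch so that it can be broken down, had the highest signal of the 99 genes, although signals of different probe sets do not compare transcript levels between genes. It had 10.83, 10.49 and 10.09 in des1-1 and 11.16, 11.09 and 10.96 in the wild type (log2 difference -0.60 ± 0.17 SE). D2HGDH, a mitochondrial D-2-hydroxyglutarate dehydrogenase, had 7.23, 6.76 and 6.52 in des1-1, against 7.43, 7.39 and 7.30 in the wild type. CCT2, an enzyme of phosphatidylcholine synthesis, had 7.02, 6.53 and 6.49 in des1-1 and 7.31, 7.24 and 7.04 in the wild type. In D2HGDH and CCT2 des1-1 1 lay within 0.07 of the lowest wild-type array. The remaining named gene, ATATH8, was one of the most even, with 6.05, 6.32 and 6.35 in des1-1 and 6.94, 6.76 and 6.75 in the wild type, and des1-1 1 was its lowest des1-1 array.

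**Figure D3:**
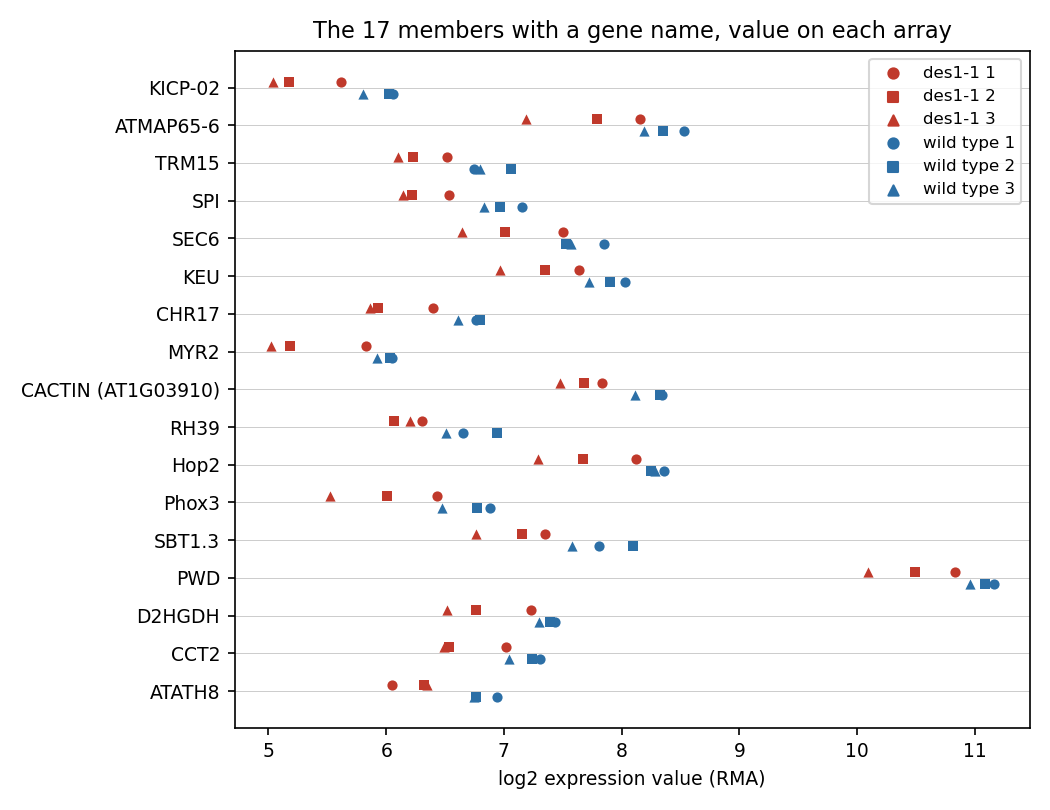
Log2 expression value (horizontal axis) of the 17 members with a gene name (rows) on each array, des1-1 in red above and wild type in blue below, with the replicate number shown by the symbol. In 16 of the 17 rows des1-1 1 is the rightmost red symbol, and ATATH8 is the exception.

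Relatives of the named members were looked up by symbol after the values had been seen, which gave 42 further genes in 10 families. Relatives that carry only a locus number or another kind of symbol cannot be found this way, so the families may be incomplete. None of the 42 passed limma's test at an adjusted p under 0.05 over all probe sets. Of these, 24 had a mean difference below 0, and in 7 all des1-1 values lay below all wild-type values (8.66% over all probe sets). Their differences ran from -0.52 to 0.24, and 20 had a mean under 5, where differences are compressed.

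Among the other 6 measured exocyst genes, SEC5A stood nearest to SEC6, with 8.64, 8.62 and 8.15 in des1-1 and 8.77, 8.87 and 8.84 in the wild type (difference -0.36, 95% interval -0.65 to -0.06, adjusted p = 0.24 in limma). SEC15B differed by -0.32 (-0.77 to 0.14) and SEC10 by -0.09 (-0.41 to 0.23), and EXO84B lay on the other side, at 0.16 (-0.01 to 0.33). The differences of the exocyst genes thus lay on both sides of 0, and whether they differ from that of SEC6 was not tested. For the second Sec1 family gene, SEC1B, the difference was 0.07 (-0.11 to 0.25).

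KINESIN-13A had 8.36, 8.49 and 8.08 in des1-1 and 8.77, 8.94 and 8.55 in the wild type, a difference of -0.44 (95% interval -0.74 to -0.14, adjusted p = 0.175 in limma). KINESIN-12B, at a mean of 4.48, was dim and differed by 0.03. In the TRM family the 2 brightest of the other 13 genes were TRM20, which differed by -0.43 (-0.74 to -0.11), and TRM21, by -0.22 (-0.51 to 0.06). The median over these 13 was -0.04, and 7 of them were dim.

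ATRX, a chromatin remodelling gene, had 5.97, 5.87 and 5.36 in des1-1 and 6.46, 6.33 and 5.96 in the wild type, a difference of -0.52 (-0.92 to -0.11, adjusted p = 0.222 in limma), and missed the group because des1-1 1 lay above wild type 3. Of the other 6 remodelling genes 5 were dim, and the median of all 7 was 0.00. The 8 further subtilases found by symbol, of which 5 were dim, had a median of -0.02 and a highest value of 0.24 for SBT3.5 (0.08 to 0.40). Hop1 differed by -0.31 (-0.62 to 0.01), while Hop3 was dim. Phox4 stood at -0.01 (-0.23 to 0.22), CCT1 at 0.13 (-0.21 to 0.47) and RH20 at -0.12 (-0.44 to 0.20).

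On the starch list 2 of 18 genes were measured, meaning here that they had a probe set with 1 named gene. The annotation used gave no gene to 8730 of the 22746 probe sets, so other listed genes may be on the array without a name. Besides PWD, DPE1, the plastid disproportionating enzyme of maltotriose, had 9.46, 9.47 and 9.48 in des1-1 and 9.64, 9.74 and 9.77 in the wild type. It differed by -0.25 ± 0.07 (limma SE, adjusted p = 0.168) and did not pass. Its des1-1 arrays were level, without the steps of PWD. The chlorophyll synthesis list (3 of 12 measured), the clock and photoreceptor list (1 of 23) and the list of nuclear genes for organelle transcription (1 of 9) held 0 members of the group, with median differences of -0.10, -0.10 and 0.01, beside 0.00 over all 22746 probe sets. None of the probe sets on these lists passed limma's test. The largest difference among those with 0 members was that of PORB (-0.15, adjusted p = 0.379), the light-dependent enzyme of chlorophyll synthesis.

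Leaf identity was checked on 4 of 19 mesophyll markers, which read 12.33 to 14.12 on all 6 arrays (RCA, LHCB4.1, LHCB4.2 and PRK). Of 6 root markers 2 were measured, EXPA7 and EXPA18, which read 4.73 to 5.74, below the array medians of 5.78 to 5.81. EXPA18 lay only just below on wild type 1, at 5.74 with an array median of 5.81. Of the guard cell and stomatal lineage list 4 of 7 were measured, with a median difference of 0.17 and 0 past limma's test. Among these SPCH and MUTE were dim, with means of 4.59 and 4.65 in des1-1 and 4.53 and 4.48 in the wild type. Probe sets that the reference names tie to the cytoskeleton and vesicle traffic by word numbered 27, with a median difference of -0.06, 0 members and 0 past limma's test. The words were matched to symbols and synonyms only. The 6 named members of the cytoskeleton or of membrane traffic were therefore not on this list, and its 0 does not mean that such genes were absent. No marker of trichomes and epidermis, of phloem and xylem, of flowers or of dividing cells had a probe set with 1 named gene.

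The most negative differences belonged to genes known here by locus number. AT5G55100 had 6.07, 5.34 and 5.09 in des1-1, against 6.57, 6.37 and 6.25 in the wild type (log2 difference -0.90 ± 0.22 SE). AT5G55660 followed with 6.59, 6.09 and 6.10 in des1-1 and 7.29, 7.20 and 6.81 in the wild type (-0.84 ± 0.17). Their des1-1 arrays 2 and 3 lay well below every other array. AT4G32330 had 8.03, 7.39 and 6.91 in des1-1, against 8.28, 8.38 and 8.15 in the wild type, so that its difference of -0.83 came mostly from des1-1 2 and 3. AT5G46070 (-0.81), AT5G56240 (-0.81) and AT1G50660 (-0.80) came next, and AT1G12800, AT3G45850 and AT3G19370 stood at -0.76 each. AT4G32190 and AT3G23310 (-0.74 each), with SBT1.3, completed the 12 most negative.

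Of these, AT5G56240 had the clearest separation, with 6.99, 6.57 and 6.27 in des1-1 and 7.46, 7.46 and 7.34 in the wild type, a gap of 0.35. In AT3G23310 the wild-type values 7.44, 7.26 and 7.31 lay close to 7.15 on des1-1 1, whereas des1-1 2 and 3 read 6.35 and 6.30.

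The 8 genes with the smallest pooled SD were chosen for that spread, and their differences ran from -0.67 to -0.50. AT3G28270 had the smallest spread within genotypes, with 8.56, 8.31 and 8.42 in des1-1 and 9.06, 9.08 and 8.88 in the wild type (difference -0.58 ± 0.09 SE). AT1G45160 had 7.26, 7.11 and 6.97 in des1-1, against 7.91, 7.82 and 7.61 in the wild type (-0.67 ± 0.11). These 2 passed limma's test after median centring or quantile normalization, and AT3G28270 after cyclic loess. Under those normalizations 16, 18 and 16 of all 22746 probe sets were called lower. Both genes were chosen by the same contrast and by their small spread, which favours passing, so this is no evidence for them. AT3G19650 had 5.81, 5.58 and 5.57 in des1-1 and 6.34, 6.24 and 6.09 in the wild type, and AT4G01460 had 5.85, 5.77 and 5.56 in des1-1 against 6.21, 6.54 and 6.31 in the wild type. In these 4 genes des1-1 1 lay 0.28 to 0.36 below the lowest wild-type array. AT4G25730 (-0.56) and AT1G78070 (-0.50) completed the 8 with the smallest spread, next to AT1G03910 and ATATH8.

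A mean of at least 9 was reached by 6 of the 99 genes and by 1380 of all 8169 probe sets. After PWD came AT2G03390, with 10.08, 9.63 and 9.32 in des1-1 and 10.35, 10.30 and 10.16 in the wild type. AT2G24420 had 9.49, 9.05 and 8.86 in des1-1, against 9.60, 9.69 and 9.67 in the wild type, where the SD was 0.05. Both stepped down over des1-1 1, 2 and 3 from a level near the wild type. AT4G19530 (-0.52), AT3G48200 (-0.59) and AT1G21590 (-0.51) were the other 3, and AT3G48200 alone of them was level over des1-1, at 8.98, 8.95 and 8.78 against 9.55, 9.66 and 9.27 in the wild type. AT1G12800, AT4G10060, AT1G02080 and AT3G28270 made up the 10 brightest, with means of 8.72 to 8.83.

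Some genes had further probe sets that the rule did not choose, on the same arrays. These were 7 probe sets for 4 genes. AT2G03390 had a second one with 7.27, 6.84 and 6.66 in des1-1 and 7.5, 7.0 and 7.4 in the wild type, a difference of -0.38 with overlap between genotypes. Of AT4G17140, 1 further probe set differed by -0.46 without overlap, and the other, at a mean of 4.55, by 0.01. AT4G16980 read 12.03, 12.14 and 12.24 in des1-1 and 12.26, 12.43 and 12.25 in the wild type on its far brighter probe set, a difference of -0.18, against -0.63 on the dimmer one, where wild type 2 alone stood high (7.48, with 6.59 and 6.27 on wild type 1 and 3, and 6.10 to 6.19 in des1-1). The 3 others of AT4G39420 were dim, with means of 4.32 to 4.56 and differences of -0.03 to 0.10. No second probe set gave a difference as large as the one selected.

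A property that the rule did not use was gene span, the distance from the start to the end of a gene in the TAIR10.1 reference table. All 99 genes had a value. Their median span was 4641 bp (quartiles 3365 and 6067), with 2298 bp (1664 and 3205) over the 8069 nuclear probe sets with 1 gene, a span and a mean of at least 5. Of the 99 genes 58 spanned over 4000 bp (58.6%, with 13.1% of the 8069), and 4 under 2000 bp (4.04%, with 38.6%). The longest were AT4G17140 (23544 bp), AT4G39420 (16023 bp), AT2G45540 (15418 bp) and SPI (15114 bp), and the shortest AT4G16980 (1157 bp), AT2G21560 (1373 bp) and AT1G28400 (1758 bp). The 87 genes that met the same rule with the sign turned, moderately higher in des1-1, were short, with a median of 1566 bp and 0 over 4000 bp. A set test was not run on these spans.

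**Figure D4:**
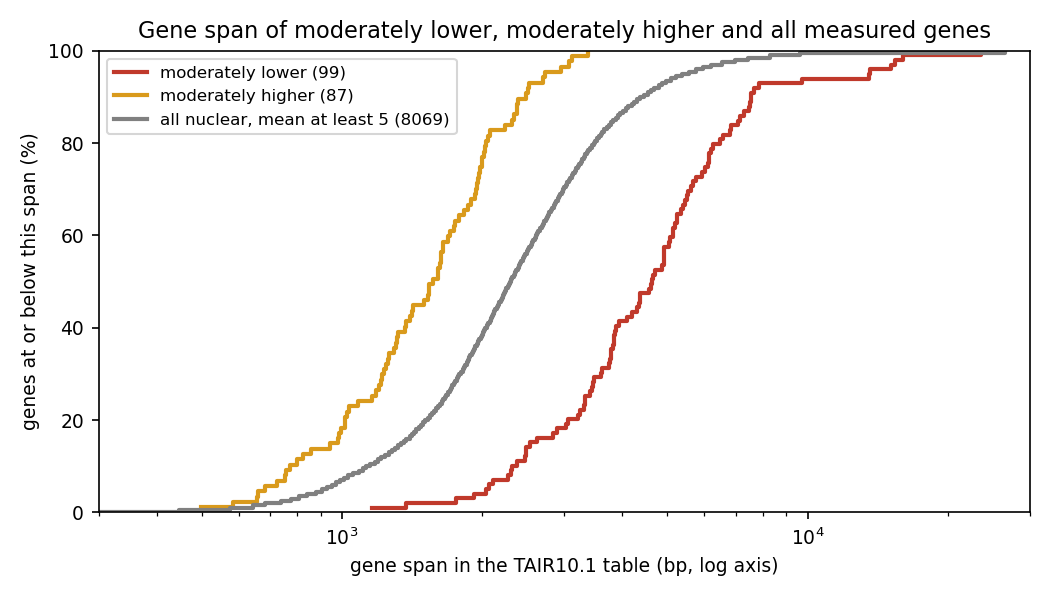
Percentage of genes (vertical axis) at or below a given gene span in bp (horizontal log axis) for the 99 moderately lower genes, the 87 moderately higher genes and 8069 nuclear probe sets with a mean of at least 5. The red curve of the lower genes lies to the right, with a median of 4641 bp, and that of the higher genes to the left, with 1566 bp.

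The 8069 probe sets were then divided by span into 10 groups of equal size. From the shortest group to the longest the median difference was 0.08, 0.11, 0.09, 0.06, 0.05, 0.03, -0.01, -0.04, -0.07 and -0.15. The number of selected genes in these groups was 0, 2, 1, 1, 4, 7, 3, 11, 17 and 53. The longest group, from 4374 bp, thus held 53 of the 99 genes, which is 6.57% of its probe sets, with 1.21% of all 8169 probe sets of that level. Across these probe sets, which share the same 6 arrays and are not independent, the rank correlation of span with difference was -0.40 (n = 8069), and among the 99 genes it was -0.03.

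Span and level were looked at together. The probe sets were split into 3 classes of level, and within each at the median span of all. In the lowest class, with means of 5 to 6.16, 13 of 1317 longer genes were selected, and 3 of 1373 shorter ones. In the middle class they were 57 of 1563 longer and 2 of 1126 shorter genes, and in the highest 21 of 1154 longer and 3 of 1536 shorter ones. At each level more of the selected genes were longer than the median.

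On single arrays the dependence on span was graded like the selected genes. In the longest group the median deviation from the wild-type mean was -0.08, -0.15 and -0.23 on des1-1 1, 2 and 3, with 0.03, 0.02 and -0.05 on wild type 1, 2 and 3. In the shortest group it was 0.03, 0.09 and 0.13 in des1-1 and 0.00, -0.01 and 0.01 in the wild type. The difference between the longest and the shortest group was -0.23 over all arrays and -0.18 to -0.29 with any single array left out. Probe sets that met the rule with 1 array left out had median spans of 3835 to 4914 bp. The part of gene span in the lower signal of the 99 genes was not tested.

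**Figure D5:**
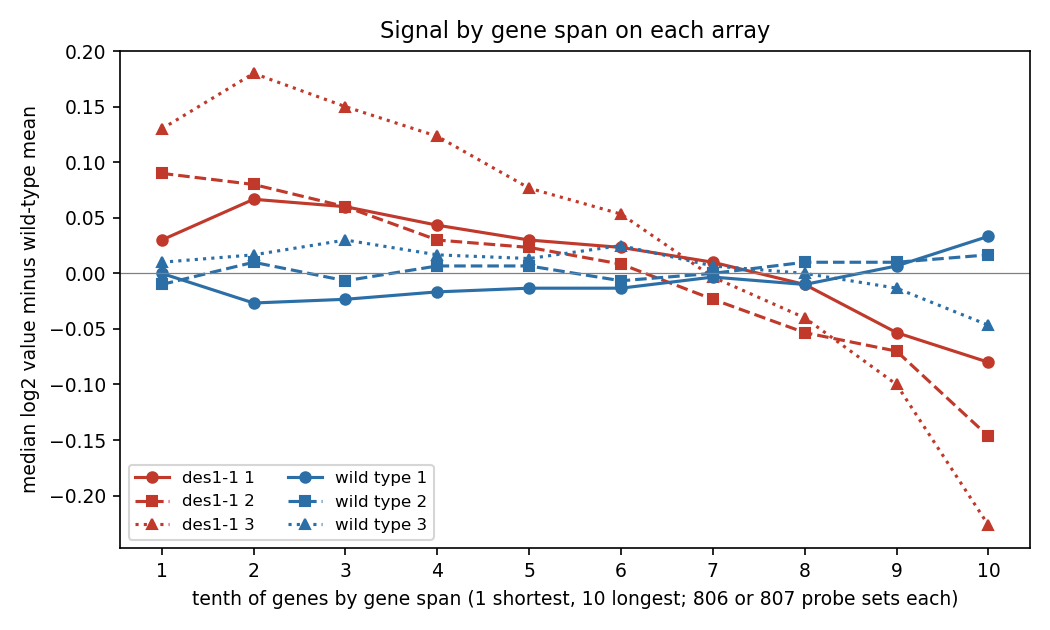
Median log2 value minus the wild-type mean (vertical axis) in 10 groups of nuclear genes by gene span (horizontal axis, shortest at 1, longest at 10), 1 line per array. The des1-1 lines slope downward to -0.08, -0.15 and -0.23 in the longest group, and the wild-type lines end at 0.03, 0.02 and -0.05.

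Control probe sets for the 3 prime and 5 prime ends of transcripts bear on RNA length and labelling. For the second GAPDH control the 3 prime minus 5 prime signal was -0.57, -0.32 and -0.51 in des1-1 and -0.74, -0.65 and -0.66 in the wild type, without overlap (difference 0.22, exact permutation test, two-sided p = 0.1, the smallest that 3 against 3 arrays allow). The ubiquitin control also did not overlap, with 1.43, 1.39 and 1.38 in des1-1 and 1.37, 1.37 and 1.36 in the wild type. Its difference was only 0.03 (exact permutation test, two-sided p = 0.1). The first GAPDH control and the 2 actin controls overlapped, with differences of -0.04, -0.14 and 0.04 (exact two-sided p = 0.9, 0.6 and 0.9). Over des1-1 1, 2 and 3 the ubiquitin and the second actin control stepped down in the order of the 99 genes, and the other 3 controls did not. In ubiquitin this ran only from 1.43 to 1.38. The second actin control read 1.40, 1.33 and 1.24 in des1-1, and it also stepped down over the wild-type arrays, with 1.43, 1.33 and 1.09. The 25S ribosomal RNA control read 5.96, 5.49 and 6.20 in des1-1 and 5.63, 10.20 and 5.54 in the wild type. Without wild type 2, the array with the high reading, 74 of the 99 genes still met the rule. With another single array left out 45 to 92 did. Leaving out any array shifts the mean differences, so the 74 does not bear on the 25S reading. The part of RNA integrity or labelling in the group was not tested beyond these values.

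In the genome the 99 genes were spread over all 5 chromosomes, with 30, 12, 18, 19 and 20 genes on chromosomes 1 to 5. These are 30.3%, 12.1%, 18.2%, 19.2% and 20.2% of the group, beside 26.2%, 15.1%, 20.5%, 14.4% and 23.7% of the 8069 nuclear probe sets. Within 10 steps of gene order only 1 pair was found, AT3G49060 and AT3G49140, 8 steps apart. More than 1 RefSeq transcript was annotated for 60.6% of the genes, with 46.7% of the 8069.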

How the data were processed

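Leaf RNA of 3 des1-1 and 3 wild-type samples was measured on ATH1 arrays. The authors deposited log2 values made with RMA and affy, per the submitters' processing notes, with no version given. RMA gives all arrays a common distribution and compresses differences of dim probe sets, so shifts shared by all genes are not visible. Biotinylated cRNA was prepared by the standard Affymetrix method, per the labels' protocols. Precision is set by the 3 arrays a genotype, since arrays carry no depth.

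Genes were named by the platform annotation, and 13436 of 13513 matched the TAIR10.1 table. That table was used for names, gene order and span, and no coordinates are printed. It holds no descriptions, so the 13 word lists were matched as whole words to symbols and synonyms. They matched 0 to 56 probe sets each and held 0 members, which does not show that the group lacks genes of these kinds. The fit used limma 3.58.1 in R 4.3.3 (genotype only, two-sided, Benjamini-Hochberg over 22746 probe sets, 64 controls left out) and was tested on simulated data. Tables used Python 3.11.15 and pandas 2.3.3.

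The members and lists were chosen with earlier results of these data known. The rule for named genes took the 12 most negative members, the 10 brightest, the 8 with the smallest pooled SD, members on lists (up to 4 per word list) and the 3 nearest to each threshold. The other named members were added because the reference table names them, and the families after their values were seen. Alternatives changed the normalization, dim filters, eBayes, weights, a replicate block and the arrays used.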

Additional observations from a re-analysis of the deposited data

How the results depend on the processing

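The median difference of the 99 genes was -0.49 to -0.73 with single arrays left out, and -0.58 to -0.61 under other normalizations or as a mean. Of the members, 90 to 97 still met the rule after another normalization and 45 (without des1-1 3) to 92 with 1 array left out. The number that met it was 55 to 305 with 1 array left out, 91 to 109 after another normalization and 86 to 99 with another minimum mean. Members past limma's adjusted p of 0.05 numbered 0 in the fit reported, and 2, 2 and 1 after median centring, quantile normalization and cyclic loess. They numbered 7 and 8 without the dimmest 25% and 50% of probe sets (the 50% filter held 89 of the 99), 7 with an intensity trend, 0 with array weights and 0 to 81 with single arrays left out, the 81 without des1-1 1. Lower calls over all 22746 probe sets, 13 in the fit reported, were 16, 18 and 16 after those normalizations and 18 with array weights. They were 40 with the trend and 0 to 546 with single arrays left out, the 546 (2.4%) without des1-1 1. With those dim filters they were 27 and 26, among the fewer probe sets kept. The cause was not tested beyond fewer arrays or probe sets. The median span and its trend over span groups, chosen after seeing the data, kept their direction in all 9 alternatives.

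With the replicate number as a block, 89 probe sets were called lower, 27 members among them (0.391% of all probe sets). Deviations from the genotype means gave correlations of 0.17, -0.23 and 0.21 between arrays of equal number, and des1-1 2 did not correlate best with its own number, so the numbers are not shown to pair the arrays.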
